A study of Mus musculus with 6 samples.

Results

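Serotonin acts in the prefrontal cortex through a family of receptors, and 9 of their genes (Htr1a, Htr1b, Htr1f, Htr2a, Htr2c, Htr3a, Htr4, Htr5a and Htr7) were examined here in a table of 18160 genes. They were chosen by name, and all 9 were found in the table and had a mean of at least 10 normalized counts over the 6 samples, the level needed to be tested, which 15151 genes reached. The mice were adult C57BL/6J animals of postnatal day 56, and RNA was sequenced from their prefrontal cortex. There were 3 samples from mice heterozygous for a Cyfip2 mutation (HET) and 3 samples from wild-type mice (WT). The labels give neither the kind of Cyfip2 mutation nor the sex of the mice. Nor do they say whether each sample is its own animal, and p-values therefore cover only the spread among these 6 libraries, which may be technical. Cyfip2 encodes a subunit of the WAVE complex, which drives branched actin assembly. The comparison asks whether mRNA levels of the receptors differ between the genotypes.

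Serotonin in the cortex comes from axons of neurons whose cell bodies lie in the raphe nuclei of the brainstem, whereas its receptors are made by cortical cells and by other cells of the tissue. The 5-HT1 receptors and 5-HT5A couple to Gi/o proteins and dampen adenylyl cyclase, and 5-HT1 receptors also open GIRK potassium channels. The 5-HT2 receptors couple to Gq and phospholipase C, and 5-HT4, 5-HT6 and 5-HT7 couple to Gs and raise cyclic AMP. The 5-HT3 receptor is the exception in the family, a cation channel opened directly by serotonin.

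The genes differ in structure. On GRCm38 with GENCODE M21, the coding sequence of Htr1a (chromosome 13, 105443639 to 105448122), Htr1b (chromosome 9, 81628291 to 81633828) and Htr1f (chromosome 16, 64924729 to 65105854) lies in 1 exon. Htr5a (chromosome 5, 27842149 to 27855088) has 2 coding exons, Htr2a (chromosome 14, 74640840 to 74709494) has 3, Htr2c (chromosome X, 146962513 to 147197277) and Htr7 (chromosome 19, 35958734 to 36057507) have 4, and Htr3a (chromosome 9, 48899213 to 48911099) has 9. Htr4 has 6. Within the span of Htr2c lie the microRNA genes Mir764, Mir1912, Mir1264, Mir1298 and Mir448, which poly(A)-selected libraries are not made to measure. Htr1b is overlapped on the opposite strand by D430036J16Rik and Htr3a by Gm32335. The kit marks strand, but the sources used here do not say whether the counting used it, so reads of these pairs cannot be told apart with certainty.

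Among the members, Htr7 and Htr5a had the promoter windows richest in CG. RefSeq promoter windows on GRCm38.p6 were matched for 7 of the 9 members, and CG dinucleotides were counted on the 250 upstream bases (CG reads the same on both strands). Htr7 had 41 of them at a GC content of 82.0%, and Htr5a had 13 at 62.0%. The windows of Htr1a, Htr1b, Htr1f, Htr2a and Htr2c held 4 to 7, against a median of 6 and quartiles of 2 and 16 over 32851 windows in the table. These counts describe 7 windows, with no test. The upstream bases outside the GENCODE gene are printed for both and for Htr2c, the member with the largest fold change, with each CG in capitals. They span chr5:27841697-27841946 on the plus strand, chr19:36057508-36057610 on the minus strand and chrX:146962263-146962512 on the plus strand.
Htr5a: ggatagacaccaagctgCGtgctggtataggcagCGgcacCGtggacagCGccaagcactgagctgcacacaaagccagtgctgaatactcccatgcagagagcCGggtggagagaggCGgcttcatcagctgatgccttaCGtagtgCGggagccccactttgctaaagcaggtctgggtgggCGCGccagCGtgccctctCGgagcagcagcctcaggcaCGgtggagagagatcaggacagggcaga
Htr7: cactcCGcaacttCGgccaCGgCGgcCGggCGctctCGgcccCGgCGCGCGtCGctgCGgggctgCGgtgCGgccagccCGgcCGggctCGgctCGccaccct
Htr2c: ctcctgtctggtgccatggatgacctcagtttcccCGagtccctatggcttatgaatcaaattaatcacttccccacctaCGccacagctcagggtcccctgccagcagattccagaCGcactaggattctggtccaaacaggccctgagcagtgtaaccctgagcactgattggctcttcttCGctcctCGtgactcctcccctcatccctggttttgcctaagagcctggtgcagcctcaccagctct
The 3 stretches differ at sight: in 103 bases Htr7 carries 19 CG dinucleotides, while Htr2c carries 5 in 250 bases and Htr5a 13 in 250 bases.

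The values are normalized counts per gene, the authors' read estimates divided by scaling factors, with totals of 36.4 to 37.1 M (M for 1e+06) per sample. The most common step between the lowest values implied a depth of 27.2 to 48.1 M reads, which is an estimate. Cyfip2 checked the labels: it was at 28356, 28578 and 29567 normalized counts in HET samples, against 45454, 43174 and 45627 in WT samples. The limma-trend fit put its log2 fold change at -0.63 ± 0.05 (SE), adjusted p = 0.0027. The tissue carried cortical markers at high level, such as Slc17a7 with 49783 ± 1881 normalized counts in HET and 52578 ± 2202 in WT samples (SD, n = 3 each). Of 8 markers of raphe serotonergic neurons, 5 were in the table, and Fev, Gata3 and En1 were not analysed here. The serotonin transporter gene Slc6a4 stood at 0.756 to 3.03 in HET and 0 to 3.07 in WT samples, and Tph2, the brain enzyme that starts serotonin synthesis, at 46.9 to 65.2 in HET and 62.2 to 85.9 in WT samples.

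No serotonin receptor gene passed an adjusted p of 0.05 between the genotypes, where 0.0132% of all genes tested did. In each of the 9 genes the HET and WT samples overlapped, while the genotypes did not overlap in 10.5% of all genes tested. At an unadjusted p under 0.05 there was none of the 9 either, against 5.07% of all genes. The median log2 fold change of the 9 was -0.02, with 4 above and 5 below WT, and that of all genes tested was 0.0020. In bulk tissue, fewer cells of a type and less RNA per cell cannot be told apart. The paragraphs that follow give these values by signalling class. Fold changes are HET over WT of log2(normalized count + 1), so that changes of low genes come out too small. Their p-values are from limma-trend, with Benjamini-Hochberg adjustment over all genes tested.

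**Figure D1:**
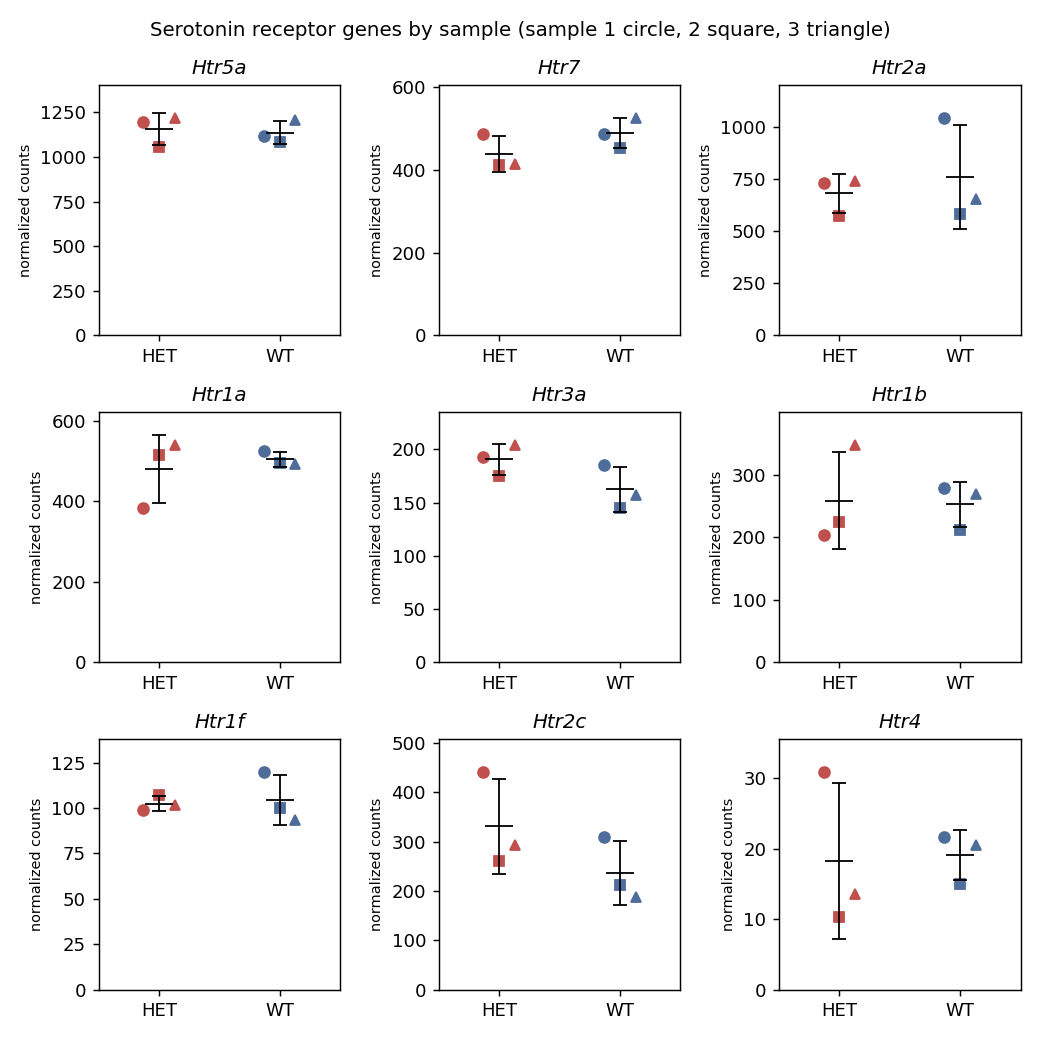
Normalized counts of the 9 serotonin receptor genes in each sample, HET left and WT right, with the mean and SD of 3 samples in black. The genotypes overlap in every panel; WT sample 1 stands high for Htr2a at 1045 and HET sample 1 for Htr2c at 441.

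Among the Gi/o-coupled receptors, Htr5a was the most abundant and had the smallest SD within genotype, pooled on the log2 scale, at 0.099. Its normalized count was 1196, 1053 and 1221 in HET samples, against 1117, 1086 and 1209 in WT samples. The values of both genotypes covered nearly the same range. The genotype difference, as log2 fold change, was 0.02 ± 0.08 (SE; adjusted p = 0.99), and the 95% interval placed the HET level between 90.1% and 115% of WT. This was the narrowest interval of the 9 genes.

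Htr1a encodes the receptor that inhibits pyramidal neurons and, on raphe neurons, serotonin release. It was at 383, 516 and 540 normalized counts in HET samples, against 526, 495 and 493 in WT samples. HET sample 1 lay below all other samples, and the other HET samples lay within or just above the WT range. HET over WT, the log2 fold change was -0.09 ± 0.12 (SE; adjusted p = 0.99), and its 95% interval ran from -0.37 to 0.19. The SD was 84.8 in HET and 18.7 in WT samples. Htr1b, which acts on axon terminals, was at 203, 224 and 348 normalized counts in HET samples, against 278, 212 and 269 in WT samples. HET sample 3 was the highest of all and HET sample 1 the lowest. Its log2 fold change was 0.0018 ± 0.19 (SE; adjusted p = 1.00), with an interval of -0.43 to 0.43. Htr1f, whose human counterpart is the target of the migraine drug lasmiditan, was at 98.7, 107 and 101 normalized counts in HET samples, against 120, 99.8 and 93.3 in WT samples. The HET values lay inside the WT range, and the log2 fold change of -0.02 ± 0.14 (SE; adjusted p = 1.00) had an interval of -0.34 to 0.30.

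The Gq-coupled receptors were spread widely between samples of a genotype. Htr2a, which encodes the receptor on cortical pyramidal neurons that psychedelic drugs activate, was at 729, 574 and 740 normalized counts in HET samples, against 1045, 581 and 655 in WT samples. WT sample 1 stood above all others, and the other 5 samples lay between 574 and 740. HET over WT, the log2 fold change was -0.12 ± 0.19 (SE; adjusted p = 0.99), with an interval of -0.55 to 0.31. Without WT sample 1 it was 0.13, so the direction rested on that sample. Layer 5 markers were also highest in WT sample 1. Relative to the WT mean, the mean of 10 such genes was at 0.08, 0.01 and 0.10 on the log2 scale in HET samples 1, 2 and 3 and at 0.15, -0.02 and -0.13 in WT samples 1, 2 and 3. The summed layer 5 level was 22016 to 22731 in HET and 20029 to 24380 in WT samples. Of the 10, 7 were above WT. On the same log2 scale, WT sample 1 was also the highest for markers of all neurons (0.07), cortical excitatory neurons (0.05) and blood (0.24). It was not the highest for upper-layer (-0.04) or layer 6 markers (-0.05). For markers of astrocytes (-0.13), microglia (-0.13), endothelial cells and pericytes (-0.18), meninges and fibroblasts (-0.12) and choroid plexus (-0.23) it was the lowest. The part of these markers in the Htr2a values was not tested.

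Htr2c had the largest fold change of the 9 genes. It encodes a Gq-coupled receptor known for RNA editing of its transcript and for very high expression in the choroid plexus. It was at 441, 260 and 292 normalized counts in HET samples, against 310, 211 and 187 in WT samples. Within each genotype sample 1 was the highest, and WT sample 1 lay above HET samples 2 and 3, so the genotypes overlapped. HET over WT, the log2 fold change was 0.48 ± 0.22 (SE; adjusted p = 0.95, unadjusted p = 0.054 by limma-trend), with a 95% interval of -0.0098 to 0.97. The HET level was thus estimated at 140% of WT, with bounds of 99.3% and 197%. The fold change was 0.26 without HET sample 1 and 0.69 without WT sample 1, and the adjusted p lay between 0.25 and 1.00 over the 14 alternatives. The unadjusted limma p depended on the setting. It ran from 0.0016 with the sample number as a block to 0.23 without HET sample 1.

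Choroid plexus markers are given beside Htr2c. Of the 12 markers, 11 were in the table, Otx2 was not analysed here, and 7 had the level to be tested, 3 above and 4 below WT. Their sum was 8210 to 8407 in HET and 8538 to 9530 in WT samples. Nearly all of it was Enpp2, which oligodendrocytes also express, and without Enpp2 the sum was 229, 342 and 270 in HET samples and 177, 221 and 243 in WT samples. Ttr, the defining marker, was at 64.3, 174 and 111 normalized counts in HET samples, against 8.43, 66.4 and 71.6 in WT samples. Ttr was lowest in WT sample 1 and next lowest in HET sample 1. By the sum without Enpp2, HET sample 1 lay above WT samples 1 and 2. None of the 11 was at 0 in all samples, and their part in the Htr2c values was not tested.

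Of the Gs-coupled pair, Htr7 was well above Htr4. Htr7 was at 487, 411 and 414 normalized counts in HET samples, against 485, 453 and 526 in WT samples. HET samples 2 and 3 were below all WT samples, and HET sample 1 was inside the WT range. Its log2 fold change of -0.16 ± 0.10 (SE; adjusted p = 0.95) had an interval of -0.38 to 0.06, and was -0.24 without HET sample 1 and -0.10 without WT sample 3. Htr4, on chromosome 18 (62324204 to 62496577), was the least abundant member, at 30.9, 10.3 and 13.5 normalized counts in HET samples, against 21.7, 15.03 and 20.5 in WT samples. At the estimated depth this was 9.89 to 31.2 reads in HET and 15.01 to 28.2 reads in WT samples. HET sample 1 was the highest and HET samples 2 and 3 the lowest. Its interval, -1.09 to 0.71 around a log2 fold change of -0.19 ± 0.40 (SE), was the widest of the 9, so only a large difference of Htr4 was detectable in these samples.

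Htr3a, the subunit every 5-HT3 channel needs, is made in the cortex by interneurons that come from the caudal ganglionic eminence (CGE). It was at 193, 175 and 204 normalized counts in HET samples, against 185, 145 and 157 in WT samples. HET samples 1 and 3 were above all WT samples, and HET sample 2 lay below WT sample 1. Its log2 fold change of 0.24 ± 0.13 (SE; adjusted p = 0.95) had an interval of -0.05 to 0.52. The 14 markers of CGE-derived interneurons had 8 members above and 6 below WT, none past the threshold, with a median log2 fold change of 0.07. Their summed level was 30413 to 31495 in HET and 32086 to 34133 in WT samples, lower in HET without overlap. The mean of the 14 on the log2 scale, relative to the WT mean, did overlap. It was at -0.0048, 0.011 and 0.015 in HET samples, against 0.029, -0.046 and 0.017 in WT samples. The part of these markers in the Htr3a values was not tested. Vip, the neuropeptide of a main CGE class, was named after its values were seen, and its means differed by less than their SDs. It was at 1380 ± 121 in HET and 1293 ± 186 in WT samples (SD, n = 3 each).

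**Figure D2:**
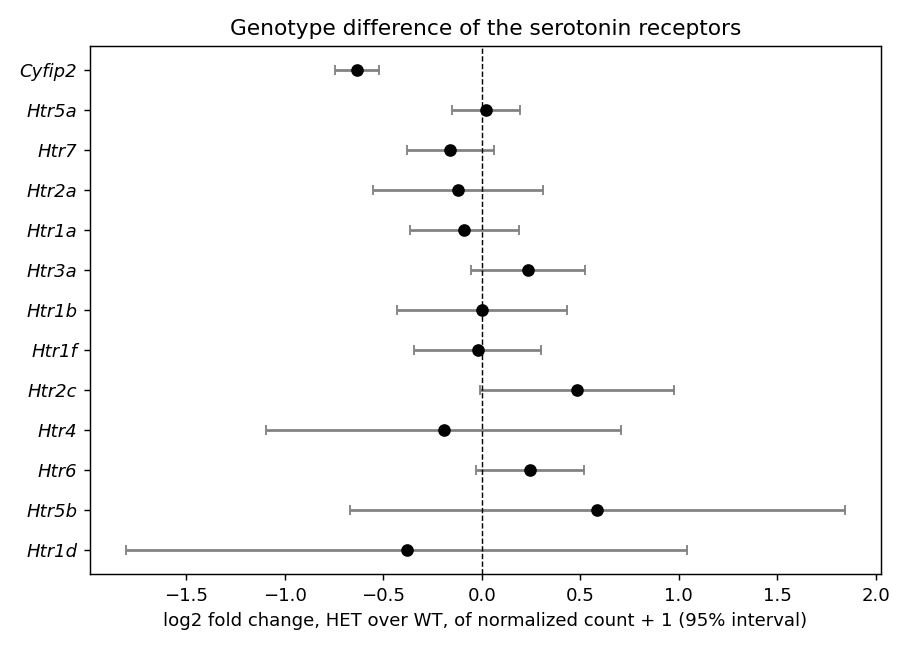
Log2 fold change of HET over WT with its 95% interval from limma-trend, for Cyfip2, the 9 receptor genes and 3 further receptor genes. Only the interval of Cyfip2 lies clear of 0; those of Htr4, Htr5b and Htr1d are the widest.

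Levels of different receptors were compared per kilobase of exon, using the union of annotated exons. Htr5a led at 215 ± 16.8 normalized counts per kb in HET and 212 ± 11.9 in WT samples (SD, n = 3 each). Htr7 followed at 129 ± 12.7 in HET and 144 ± 10.7 in WT samples, then Htr2a at 121 ± 16.5 in HET and 136 ± 44.5 in WT samples. Htr1a stood at 107 ± 18.9 in HET and 113 ± 4.16 in WT samples. Below these came Htr3a (91.5 ± 7.07 in HET, 77.9 ± 9.92 in WT samples) and Htr1b (54.7 ± 16.5 in HET, 53.5 ± 7.62 in WT samples). The lowest were Htr1f (39.7 ± 1.65 in HET, 40.5 ± 5.36 in WT samples), Htr2c (35.5 ± 10.3 in HET, 25.3 ± 6.94 in WT samples) and Htr4 (3.71 ± 2.25 in HET, 3.88 ± 0.722 in WT samples). From the top to the bottom of the order the mean level per kb differed 56.2-fold.

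Neighbours in that order were compared within samples by exact two-sided sign-flip permutation tests over the 6 samples, adjusted over 8 pairs. The smallest p such a test can give is 0.031, and the adjusted p of the 4 pairs that reached it was 0.062, so no pair passed 0.05. This floor applied even to Htr2c over Htr4, and the pairs were taken from the order in these same samples. The tests therefore cannot decide whether neighbours differ, and the folds and counts of samples are given as descriptions. The higher gene was higher in all 6 samples for Htr5a over Htr7 (1.57-fold), Htr3a over Htr1b (1.58-fold), Htr1b over Htr1f (1.33-fold) and Htr2c over Htr4 (8.20-fold). Htr1a over Htr3a and Htr1f over Htr2c held in 5 of 6 samples each (adjusted exact p = 0.083). Htr7, Htr2a and Htr1a could not be ordered beyond their spread: Htr7 over Htr2a and Htr2a over Htr1a held in 4 of 6 samples, with adjusted exact p values of 0.41 and 0.36. The place of Htr2c depended on the length used, as the union of its exons over 7 transcripts is 9328 bases and its longest transcript 4883. With the longest transcript its level was 58.1 per kb and it moved to place 6, above Htr1b and Htr1f. With the coding length Htr5a still led and Htr4 was still last, but Htr2a came before Htr1a and Htr7, and Htr3a stood at place 7.

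**Figure D3:**
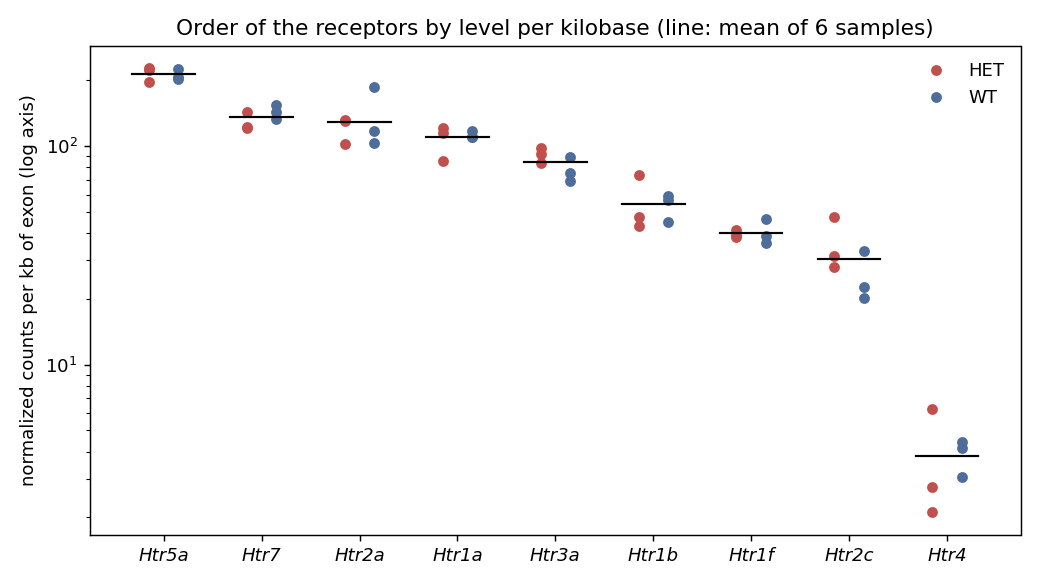
Normalized counts per kb of exon on a log axis for the 9 genes in order of their mean (black line), with HET samples left of WT samples. Htr5a leads with a mean of 213, the middle genes overlap each other, and Htr4 lies far below at 3.80.

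Summed over the 9 genes, the level per kb was 809, 737 and 847 in HET samples, against 886, 728 and 799 in WT samples, so the family total overlapped. The Gi/o-coupled genes took 52.3% ± 3.58 of that sum in HET and 52.2% ± 3.14 in WT samples (SD, n = 3 each). The Gq-coupled genes took 19.6% ± 2.15 in HET and 19.8% ± 4.36 in WT samples, and the Gs-coupled genes 16.6% ± 1.90 in HET and 18.4% ± 1.66 in WT samples. These shares overlapped between the genotypes. Htr3a alone took 11.4%, 11.4% and 11.6% in HET samples, against 10.03%, 9.55% and 9.42% in WT samples, and these values did not overlap. No test is given for the shares, because they are scores over genes chosen with earlier results known, and the normalized count of Htr3a itself did overlap. The ratio of Htr2a to Htr2c per kb was 2.75, 3.67 and 4.21 in HET samples, against 5.62, 4.57 and 5.81 in WT samples, again without overlap and without a test. The size of this ratio depends on the length used for Htr2c. For scale, the genotypes did not overlap in 10.5% of all genes tested, and such a figure for ratios or shares is not given here. The ratio of Htr2a to Htr1a was 1.52, 0.891 and 1.10 in HET samples, against 1.59, 0.939 and 1.06 in WT samples, which overlapped, and in both genotypes it was highest in sample 1.

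**Figure D4:**
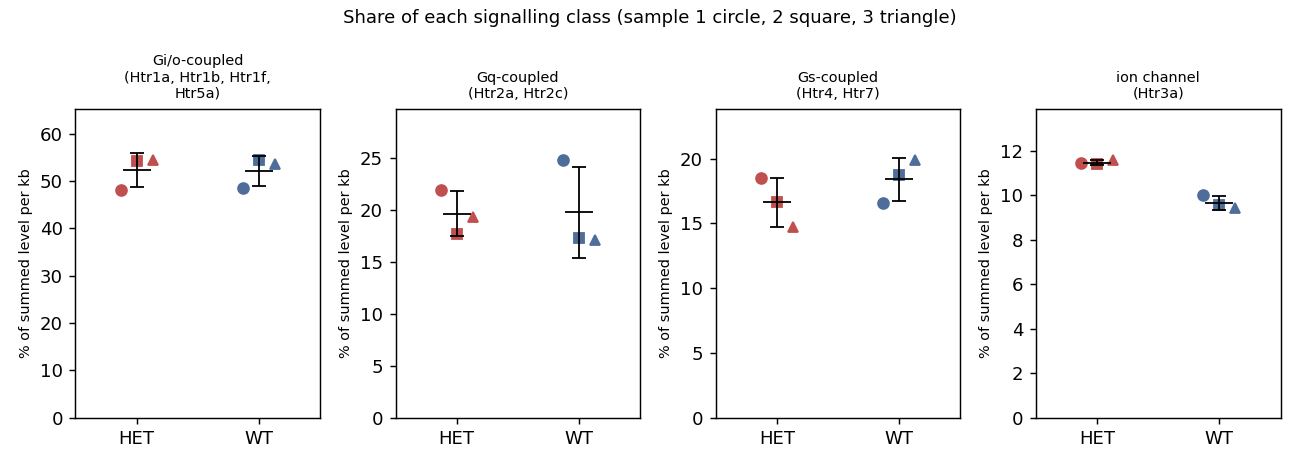
Percent of the summed level per kb of the 9 genes taken by each signalling class, HET left and WT right, with mean and SD of 3 samples. The Gi/o, Gq and Gs shares overlap; the Htr3a share is 11.4% to 11.6% in HET and 9.42% to 10.03% in WT samples.

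The receptors differed among themselves in how far samples of a genotype lay apart. The SD within genotype, on the log2 scale and pooled over both, was 0.35 for Htr2a, 0.39 for Htr2c and 0.33 for Htr1b. The 500 genes nearest to each in mean had median SDs of 0.096, 0.14 and 0.14. Htr2a exceeded 99.4% of those genes, Htr2c 98.4% and Htr1b 96.2%. Htr1a, at 0.19, exceeded 88.0%, and Htr4, at 0.58, exceeded 80.8%. Htr5a, Htr7, Htr3a and Htr1f were at 60.2%, 59.0%, 41.4% and 22.8%, so their samples lay about as far apart as those of genes of like level. These percentiles are a description of 6 samples.

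**Figure D5:**
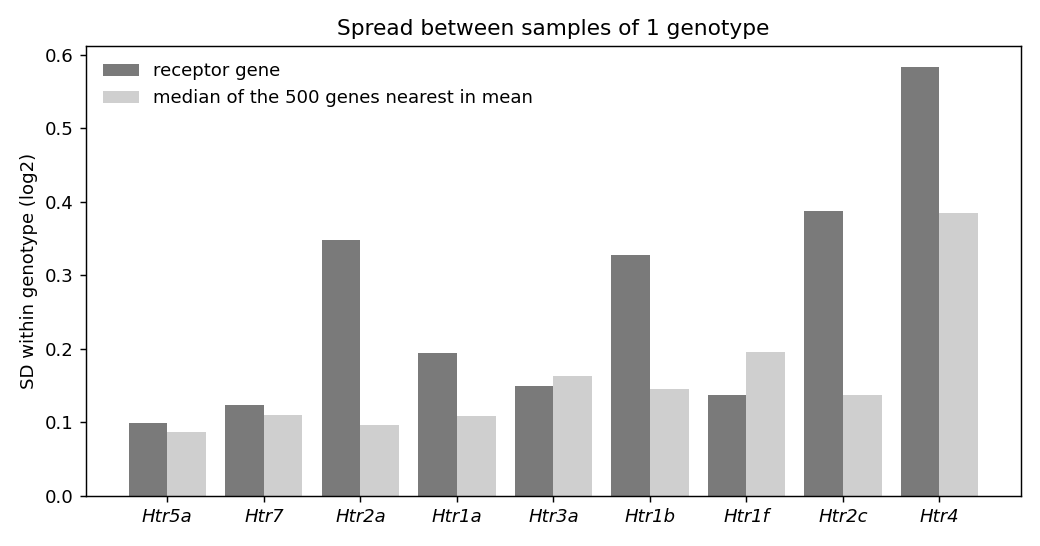
Pooled SD within genotype of log2(normalized count + 1) for each receptor gene (dark bars) and the median of the 500 genes nearest in mean (light bars). Htr2a, Htr1b and Htr2c stand well above genes of like level; Htr5a, Htr7, Htr3a and Htr1f do not.

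For each receptor the gene with the most similar pattern over the 6 samples was sought among 12390 genes with a mean of at least 100, the receptor itself left out. Pearson's r of log2(normalized count + 1) was 0.998 for Htr2c with Ankrd26, 0.995 for Htr2a with Arfgef2, 0.994 for Htr4 with Sec61g and 0.994 for Htr1f with Abracl. It was 0.993 for Htr3a with Cdc42, 0.992 for Htr5a with Gpr161 and for Htr1a with Tusc1, 0.989 for Htr7 with Epha10 and 0.988 for Htr1b with Ppp1cb. With 6 samples, between 59 and 244 genes per receptor reached an r above 0.9, the most for Htr2a and the fewest for Htr1f. The values of r are descriptions of these libraries only.

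Of the other serotonin receptor genes, Htr6 was the only abundant one. This Gs-coupled receptor was at 169, 165 and 190 normalized counts in HET samples, against 150, 159 and 134 in WT samples. All HET values lay above all WT values, as they did in 5.15% of all genes tested. Its log2 fold change of 0.24 ± 0.12 (SE) had an adjusted p of 0.95 and an unadjusted p of 0.074 by limma-trend. By exact permutation, two-sided, p was 0.1, which is the lowest value possible with 3 samples on each side. Htr5b was at 20.1, 5.26 and 16.1 in HET samples and at 13.5, 8.14 and 4.04 in WT samples. Htr1d was at 10.1, 19.7 and 3.99 in HET samples and at 5.98, 29.4 and 10.97 in WT samples. Htr2b was near 0 in most samples, at 0 to 1.46 in HET and 0 to 6.69 in WT samples, and was not tested. Htr3b, the partner subunit of Htr3a, was not analysed here.

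The wider serotonin pathway held no gene past the threshold. Of 12 tested genes for serotonin synthesis, transport and breakdown, 7 were above and 5 below WT, with a median log2 fold change of 0.06. Maob, a monoamine oxidase that degrades amines in glia, was at 848, 809 and 740 normalized counts in HET samples, against 752, 704 and 676 in WT samples, a log2 fold change of 0.17 ± 0.08 (SE). Tph2 stood at -0.40 ± 0.20 (SE) on the log2 scale, or at -0.26 without WT sample 3. The genotypes overlapped in both genes, and both had adjusted p values of 0.95.

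Among signalling genes downstream of the receptors, none passed either. The genes named here and in the next paragraph were picked because their p-values were the smallest in their lists. That choice favours genes without overlap, so a lack of overlap in them adds no separate evidence. Without any such choice, the genotypes did not overlap in 10.5% of all genes tested. Of 19 tested G protein subunit genes, 13 were above WT, with a median log2 fold change of 0.01. The gamma subunit gene Gng4 was at 1595, 1460 and 1536 normalized counts in HET samples, against 1265, 1321 and 1293 in WT samples, without overlap. The difference was a log2 fold change of 0.24 ± 0.06 (SE; adjusted p = 0.73). Gnb4, a beta subunit, was at 0.22 ± 0.10 (SE), and at 0.11 without WT sample 3. The adenylyl cyclase and protein kinase A genes had 13 above and 10 below WT, a median of 0.0100 and no log2 fold change beyond -0.14 or 0.10. Rapgef4, a cyclic AMP sensor, was at 0.10 ± 0.05 (SE) and the phosphodiesterase gene Pde4a, without overlap, at -0.09 ± 0.05 (SE), or -0.06 without WT sample 1.

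The phospholipase C and protein kinase C genes had 5 above and 11 below WT and a median log2 fold change of -0.03. Dgkg, a diacylglycerol kinase, was at 780, 789 and 788 normalized counts in HET samples, against 699, 649 and 646 in WT samples, without overlap. The difference was a log2 fold change of 0.24 ± 0.07 (SE; adjusted p = 0.74). Plcb1, a Gq effector, was at -0.12 ± 0.07 (SE), and at -0.07 without WT sample 1. All 3 tested GIRK channel genes lay below WT, with Kcnj6 at -0.18 ± 0.12 (SE) and Kcnj9 at -0.06 ± 0.06 (SE). Kcnj6 depended on single libraries, at -0.05 without WT sample 1, -0.09 without HET sample 2 and -0.29 without WT sample 2, and Kcnj9 was at -0.03 without WT sample 3. Of 23 receptor regulators and binding partners, 11 were above and 12 below WT. S100a10, the adaptor p11 that binds 5-HT1B and 5-HT4 receptors, was at 458, 475 and 499 normalized counts in HET samples, against 560, 529 and 601 in WT samples. The genotypes did not overlap, as with HET lower in 5.30% of all genes, and the log2 fold change was -0.24 ± 0.08 (SE; adjusted p = 0.91). Dlg4, the scaffold PSD-95, which binds 5-HT2A and 5-HT2C receptors, was lower in all HET samples than in any WT sample, at -0.11 ± 0.05 (SE; adjusted p = 0.95).

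Markers of tissue beside the prefrontal cortex bear on receptors that other regions share. Striatal projection neuron markers summed to 12060 to 12380 in HET and 13666 to 14310 in WT samples, with 4 of 11 tested members above WT and a median log2 fold change of -0.18. Of the 11, 3 were lower in all HET samples than in any WT sample, as were 5.30% of all genes tested, and 0 were higher. Drd1, which defines a main class of striatal projection neurons, was nearly level, at 246 ± 18.6 in HET and 244 ± 35.4 in WT samples. Drd2 was low, at 23.9 ± 8.62 in HET and 31.8 ± 14.6 in WT samples (SD, n = 3 each). None of the 12 was at 0 in all samples. The striatum expresses Htr1b, Htr2c and Htr4, and the part of these markers in their values was not tested. Of the other regions around the prefrontal cortex, hippocampal markers had 4 of 5 tested members below WT, with a median of -0.14, and summed to 3083 to 3334 in HET and 3403 to 3679 in WT samples. Claustrum and endopiriform markers had all 6 members above WT, with a median of 0.16, and summed to 9803 to 10099 in HET and 9153 to 10011 in WT samples. Most of that sum was Gng2, at 5187 to 5589 in HET and 5026 to 5794 in WT samples. Gng2 and Gnb4 also count among the G protein subunit genes above. Thalamic markers had 4 of 6 members above WT, with a median of 0.03, and summed to 1358 to 1510 in HET and 1332 to 1524 in WT samples.

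Markers of cell types within the cortex were examined in the same way. Layer 6 markers had all 9 tested members above WT, with a median of 0.18, and summed to 6345 to 6802 in HET and 5391 to 6836 in WT samples. Upper-layer markers had 8 of 10 members below WT, with a median of -0.17, and summed to 32347 to 35604 in HET and 35811 to 41637 in WT samples. Markers of all neurons had 5 of 7 members below WT, with a median of -0.07, and summed to 235555 to 249029 in HET and 241658 to 265456 in WT samples. Those of cortical excitatory neurons had 4 of 6 below WT, with a median of -0.05, and summed to 191090 to 206010 in HET and 208699 to 214665 in WT samples. Of the 7 markers of all neurons, 4 were lower in all HET samples than in any WT sample, as were 5.30% of all genes tested. None of the 7, or 0, were higher without overlap. Lower without overlap were also 2 upper-layer markers, 1 marker of cortical excitatory neurons and 1 of oligodendrocytes. Oligodendrocyte markers had all 12 members below WT, with a median of -0.13, and summed to 132898 to 144067 in HET and 136291 to 189764 in WT samples, with WT sample 2 the highest. Endothelial and pericyte markers had 10 of 11 members above WT, with a median of 0.09, and astrocyte markers had 8 of 10 above WT, with a median of 0.04. None of these marker genes passed an adjusted p of 0.05, and their part in the receptor values was not tested.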

How the data were processed

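The deposited table holds 1 value per gene and sample, a normalized signal (the authors' normalized counts, not raw counts). Per the submitters' processing notes, which name tools without their roles, the authors' tools were DESeq2 1.19.11, Salmon 0.11.2 and R 3.6.0, and the build was GRCm38. Libraries came from a stranded kit with poly(A) selection, per the labels' protocols. Within a tolerance of 0.1 reads, 20.9% to 43.4% of values of 10 to 20 reads were whole, so reads were not recovered, no count model was used, and the branch of the design for normalized values was followed. A limma-trend model (limma 3.58.1, R 4.3.3) with genotype as its single term was fitted to log2(value + 1) over 15151 genes with a mean of at least 10. P-values were adjusted over these genes by the Benjamini-Hochberg method, and the threshold was 0.05. The procedure was tested on simulated data. Symbols matched 18122 of 18160 identifiers, and lengths came from GENCODE M21. No pair of samples of a genotype agreed within counting noise (mean chi-square per gene 9.30 to 25.5). The genes and lists were chosen with earlier results of these data known. All 9 receptors were named, with Cyfip2, every other serotonin receptor gene, the 2 genes with the smallest p in each pathway list and the gene most alike to each receptor; marker genes were named as checks after their values were seen. Alternatives were a trimmed-mean rescaling, other variance models of limma, other filters and pseudocounts, the sample number as a block, other lengths and leaving out each sample.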

Additional observations from a re-analysis of the deposited data

How the results depend on the processing

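None of the 9 receptor genes passed an adjusted p of 0.05 under any of the alternatives fitted (smallest 0.25), and 115 of their 125 alternative values kept direction. The 10 reversed values came from leaving out a sample, and over the 6 samples left out in turn the log2 fold change ran from -0.18 to 0.066 for Htr1a (positive without HET sample 1), -0.23 to 0.15 for Htr1b (negative without HET sample 3 or WT sample 2), -0.096 to 0.083 for Htr1f (positive without HET sample 1 or WT sample 1), -0.29 to 0.13 for Htr2a (positive without WT sample 1), -0.63 to 0.12 for Htr4 (positive without HET sample 2) and -0.018 to 0.089 for Htr5a (negative without HET sample 1, HET sample 3 or WT sample 2). Htr1d, which is not among the 9, ran from -0.87 to 0.20 (positive without HET sample 3 or WT sample 2). The mean filter of 50 left Htr4, Htr1d and Htr5b without a value. The number of genes past the threshold was 2. It was 1 by limma without the trend, 1 with a mean of at least 50, 1 without HET sample 1, 4 without HET sample 3 and 4 without WT sample 1. Cyfip2 lost its call by limma without the trend, at -0.63 (adjusted p = 0.15, and 0.00085 to 0.15 over the alternatives). The cause of these changes was not tested. The number of receptors whose genotypes did not overlap was 0, and 0 to 2 when a sample was left out, where 17.5% to 24.0% of all genes did not overlap. The order by level changed in 3 places with the longest transcript, 7 with the coding length and 6 without length, and in 0 places when a sample was left out. Same-numbered samples deviated together with correlations of 0.13, 0.12 and -0.0052, against -0.16 to 0.046 for samples of different number. The pairs numbered 1 and 2 were thus the highest, while HET sample 3 correlated best with WT sample 1. These values do not settle whether the samples were paired, and the main fit did not treat them as such. With the replicate block 2 genes passed, none of them a receptor. Htr2c was then at 0.48 ± 0.10 (SE; adjusted p = 0.25, unadjusted p = 0.0016 by limma-trend), against an unadjusted p of 0.054 in the main fit. With 3 samples a genotype and an estimated depth of 27.2 to 48.1 M reads, small differences of the receptors were not detectable.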
